A study of Homo sapiens with 6 samples.

Results

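The genes described here are 10 TRIM genes with known antiviral roles, TRIM5, TRIM14, TRIM21, TRIM22, TRIM25, TRIM26, TRIM34, TRIM38, TRIM56 and TRIM69, out of 58174 genes in the RNA-seq files. They were picked by symbol from known function, with PML left out, in a choice made with earlier results of these data known. Counts over the 10 genes are therefore descriptions. All 10 passed the filter on low values that left 12428 genes for testing. The cells were T24, an established human bladder cancer line, infected with lentivirus that carried either 1 shRNA against UBC9 (shRNA-UBC9) or a scrambled control shRNA (shRNA-NC), and then selected with puromycin. UBC9 is the E2 enzyme that attaches SUMO to proteins. Each group had 3 samples, which the labels number without saying whether they came from separate cultures, so p-values measure only the spread between these samples. A single shRNA sequence was used, so an effect of this hairpin and an effect of losing UBC9 cannot be told apart. In the levels below, a change in RNA per cell and a change in the share of cells that hold the RNA cannot be told apart either.

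TRIM proteins carry an N-terminal RING domain, which recruits a ubiquitin-loaded E2 enzyme, then B-box zinc fingers and a coiled coil through which they pair, and in many members a C-terminal PRY-SPRY domain that binds the target. Many are induced by interferon. Some meet the virus itself, as TRIM5 does with the retroviral capsid and TRIM21 with antibody-coated particles, and others tune the RIG-I, MAVS and STING signaling routes that lead to interferon, as TRIM25 does. TRIM14 lacks the RING domain and works as an adaptor, so the name ubiquitin ligase does not hold for all 10.

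Levels are given as RPKM, which scales reads to the length of the gene and the mapped total of the sample. The gene lengths, worked out from the RPKM values, ran from 1929 bases for TRIM21 to 11173 bases for TRIM56. Comparisons of levels between genes depend on these lengths. Mapped reads, worked out from the steps of the RPKM values, ranged from 28219032 to 36058872 per sample, and the 10 TRIM genes had between 224 and 13214 reads each in a sample. Of 10 epithelial markers 6 were tested. KRT7, KRT8, KRT18 and KRT19 were expressed, at 47.1 to 556 RPKM on average in shRNA-NC. These keratins and GATA3, 5 of the 6, had lower levels in shRNA-UBC9 at an adjusted p below 0.05 (limma). Of these, KRT7 also passed the fold threshold of 1 on the log2 scale (log2 fold change -1.11). EPCAM, the other tested marker, went the opposite way, with a log2 fold change of 0.996. Its groups overlapped and its adjusted p was 0.0984 (limma). The summed level of the 10 was 943 to 1116 RPKM in shRNA-NC and 430 to 568 RPKM in shRNA-UBC9, and its part in the results below was not tested. The mesenchymal marker VIM averaged 468 RPKM in shRNA-NC and 366 RPKM in shRNA-UBC9 (adjusted p = 0.121, limma). KRT5 was listed at 0 in every sample and CDH1 and UPK1B at or near 0. UPK2 averaged 0.0716 RPKM in shRNA-NC and 0.0803 in shRNA-UBC9. The 5 leukocyte markers summed to 0.657 to 1.41 RPKM in shRNA-NC and 0.752 to 1.74 RPKM in shRNA-UBC9. The highest single value was 0.786 RPKM among these and 0.0780 RPKM among 3 fibroblast markers. Among 3 endothelial markers, only CDH5 reached the filter, with 2.87 RPKM on average in shRNA-NC and 0.619 in shRNA-UBC9.

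The interferon-stimulated response element (ISRE), bound by IRF family proteins, has a core of GAAA, any 2 bases and GAAA. The core was searched on both strands in RefSeq promoter windows of GRCh38.p14, which run from 250 bases before to 50 bases after the gene start that RefSeq uses. That start is not the end of the gene span in GENCODE release 44 for every gene. It lies 253545 bases inside the span for TRIM5, 7540 for TRIM69, and 5237 and 12491 for the pair of TRIM34 windows, and at most 31 bases inside it for the other genes. Windows were found for 9 of the 10 genes, with none for TRIM22 and 2 for TRIM34. The core was present in 6 of the 10 windows, each of a different gene, against 3.57% of all 35116 windows. Counted by gene, it was present for 6 of the 9 antiviral TRIM genes and for 361 (3.93%) of the 9180 tested genes with a window. Of 20 other numbered TRIM genes that were tested and had a window, 3 held it (TRIM2, TRIM16 and TRIM44). Among the up-regulated genes of the comparison below, it was present for 59 of 428 with a window (13.8%), but only 66.3% of those genes had a window, so no comparison is drawn from that share. The stretches that hold it are shown because 6 of the genes hold it. They are written 5′ to 3′ on the strand of the gene, with the core in capitals (on the opposite strand it reads TTTC, any 2 bases and TTTC).
TRIM26 (chr6:30213555-30213630, minus strand): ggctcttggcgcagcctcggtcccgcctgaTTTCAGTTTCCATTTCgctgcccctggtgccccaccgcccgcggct
TRIM14 (chr9:98119223-98119278, minus strand): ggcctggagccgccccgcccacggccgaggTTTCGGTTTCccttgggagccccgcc
TRIM21 (chr11:4393663-4393692, minus strand): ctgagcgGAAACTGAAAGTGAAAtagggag
TRIM5 (chr11:5685075-5685131, minus strand): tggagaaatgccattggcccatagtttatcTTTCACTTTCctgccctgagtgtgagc
TRIM34 (chr11:5624881-5624950, plus strand): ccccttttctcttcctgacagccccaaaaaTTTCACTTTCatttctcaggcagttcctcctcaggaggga
TRIM69 (chr15:44736436-44736505, plus strand): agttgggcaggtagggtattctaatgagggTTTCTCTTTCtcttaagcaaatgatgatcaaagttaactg

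TRIM26 and TRIM21 each held 2 overlapping copies, and the others 1. Relative to the RefSeq start, the core began 26 bases upstream in TRIM14, 27 in TRIM5, 62 in TRIM69, 90 in the first window of TRIM34, and 194 and 188 in TRIM26, while in TRIM21 it began at bases 18 and 24 of the transcript. TRIM5 and TRIM34 held the same 10 letters. TRIM25, TRIM38 and TRIM56 had no match in their windows, nor had the second window of TRIM34. The gamma-activated site, TTC, any 3 bases and GAA, was in none of the 9 genes' windows and in 7.66% of all windows. The NF-kappaB core, GGG, any 5 bases and CC on either strand, was in 5 of the 10 windows (TRIM5, TRIM14, TRIM25, TRIM26 and TRIM56), and in 58.7% of all windows. Counted by gene, it was present for 5 of 9 TRIM genes and for 80.0% of the 9180 tested genes with a window, which are 73.9% of tested genes, so that share too is a description. These are matches of letters, and no binding was measured.

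**Figure D1:**
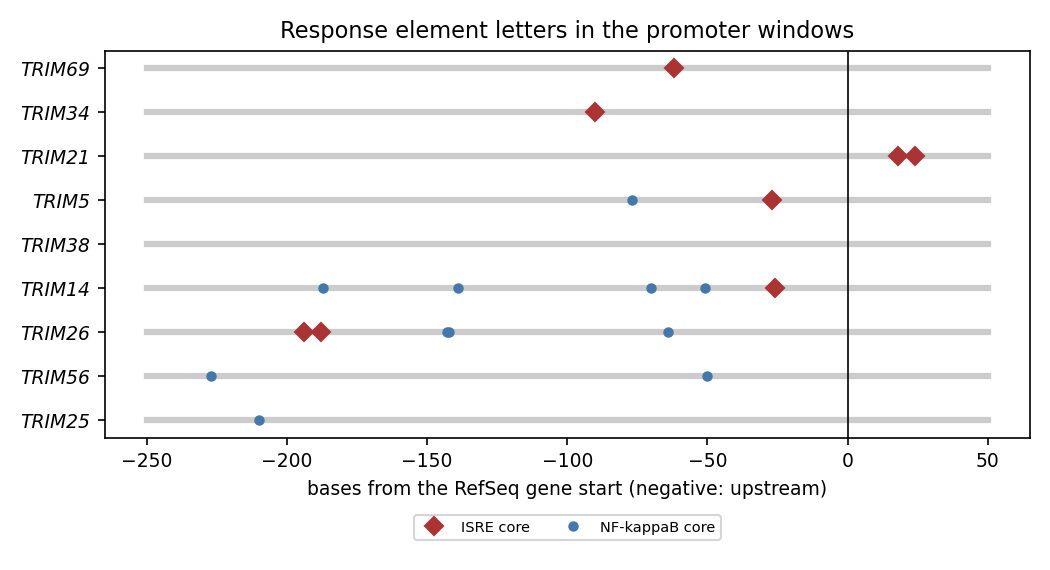
Matches of the ISRE core (red diamonds) and the NF-kappaB core (blue circles) in the promoter windows (grey bars) of the 9 antiviral TRIM genes with a RefSeq window, ordered by log2 fold change from TRIM69 at the top to TRIM25 at the bottom. The x axis gives the first base of each match from the RefSeq start, and the 2 windows of TRIM34 share a line.

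All 10 genes were higher in shRNA-UBC9, with log2 fold changes from 0.44 for TRIM25 to 2.41 for TRIM22 and a median of 1.17, against a median of 0.005 over all 12428 tested genes. In each of the 10, the lowest knockdown sample lay above the highest control sample, which held for 25.7% of all tested genes. Adjusted p-values (limma, over all tested genes) were below 0.05 for all 10, and 18.8% of tested genes were higher at that threshold. With a log2 fold change above 1 required as well, 6 of the 10 were up-regulated differentially expressed genes (DEGs), namely TRIM22, TRIM69, TRIM34, TRIM21, TRIM5 and TRIM38, compared with 5.2% of tested genes. The count rested in part on shRNA-UBC9 replicate 2. Without it 3 genes were DEGs (TRIM22, TRIM69 and TRIM34), while TRIM21, TRIM5 and TRIM38 had log2 fold changes of 0.97, 0.96 and 0.92. Fold changes are on the log2(RPKM + 0.1) scale.

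**Figure D2:**
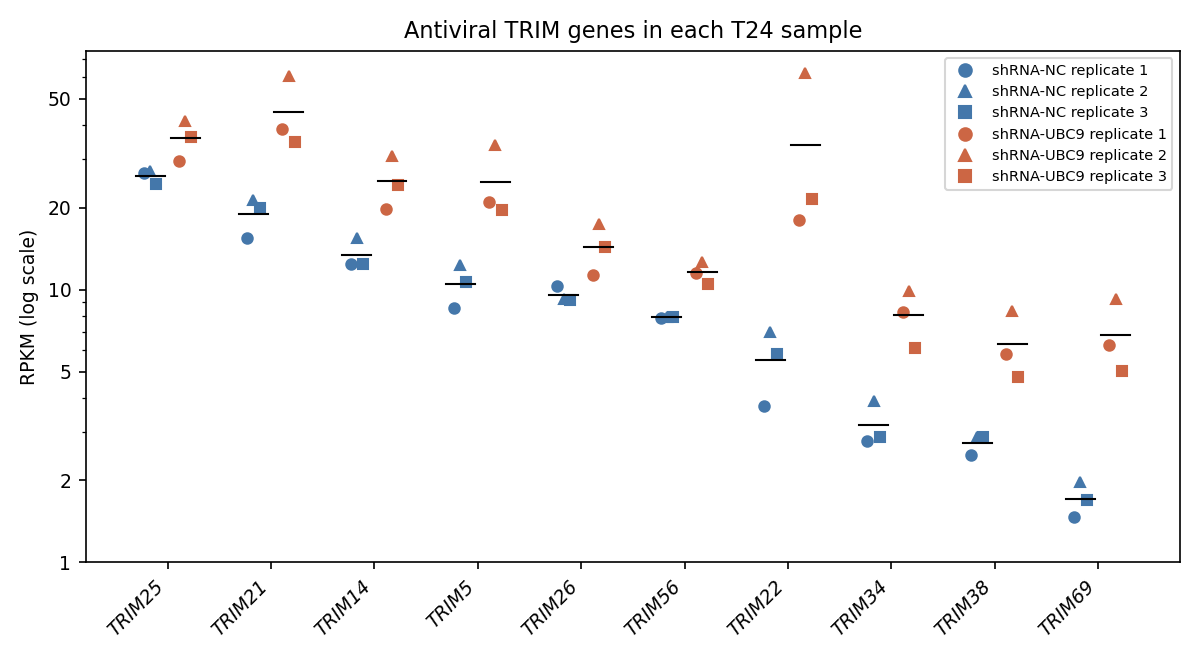
RPKM (log scale) of the 10 antiviral TRIM genes in each T24 sample, ordered by their mean in shRNA-NC. Blue symbols are shRNA-NC and orange symbols shRNA-UBC9, with a circle, triangle and square for replicates 1, 2 and 3 and a black line for the group mean. No orange symbol lies at or below a blue one of the same gene, and the orange triangle is the highest symbol for every gene.

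The first group to describe binds or restricts retroviruses and lies in a cluster on chromosome 11, where TRIM34, TRIM5 and TRIM22 follow each other. TRIM22, an interferon-induced repressor of HIV-1 transcription (chr11:5689610-5737089, plus strand), had 3.76, 6.99 and 5.83 RPKM in the shRNA-NC samples and 18.1, 62.3 and 21.4 RPKM in the shRNA-UBC9 samples. The lowest shRNA-UBC9 value was 2.58 times the highest shRNA-NC value. The log2 fold change was 2.41 (SE 0.43, 95% interval 1.41 to 3.41, adjusted p = 0.00382, limma), the largest among the 10 and with the widest interval. shRNA-UBC9 replicate 2 stood at 3.16 times the mean of the other 2 samples of its group, and without it the log2 fold change was 1.86.

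TRIM5, which binds the incoming retroviral capsid and disrupts it (chr11:5663195-5938619, minus strand), had 8.53, 12.3 and 10.6 RPKM in shRNA-NC and 21.0, 33.8 and 19.5 RPKM in shRNA-UBC9. The groups did not overlap, and the log2 fold change was 1.20 (SE 0.22, 95% interval 0.71 to 1.70, adjusted p = 0.00373, limma). The long annotated span of TRIM5 covers TRIM22 on the opposite strand, but the 2 genes share no exon base in GENCODE release 44. TRIM5 does share 7.14% of its exon bases with another annotated gene on the same strand.

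TRIM34, which acts together with TRIM5 against some lentiviral capsids (chr11:5619764-5644398, plus strand), had 2.79, 3.92 and 2.88 RPKM in shRNA-NC and 8.25, 9.89 and 6.11 RPKM in the knockdown samples. TRIM34 rose by 1.30 on the log2 scale (SE 0.19, 95% interval 0.86 to 1.74, adjusted p = 0.00161, limma). It had the fewest reads, from 224 to 937 per sample. Of its exon bases, 83.6% also belong to the readthrough gene TRIM6-TRIM34, so the split of reads between them is uncertain. The readthrough gene had between 0 and 42 reads per sample. The neighboring TRIM6, not among the 10, rose as well, with 0.716 ± 0.261 RPKM in the control and 2.13 ± 0.45 RPKM in the knockdown cells (SD over 3 samples each). The log2 difference was 1.48 (adjusted p = 0.00276, limma).

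TRIM21, a cytosolic antibody receptor that sends antibody-coated virus to the proteasome (chr11:4384897-4393702, minus strand), had 15.5, 21.3 and 19.8 RPKM in shRNA-NC and 38.8, 60.9 and 34.8 RPKM in shRNA-UBC9. Its lowest shRNA-UBC9 sample was 1.64 times its highest shRNA-NC sample. The log2 fold change was 1.21 (SE 0.21, 95% interval 0.73 to 1.69, adjusted p = 0.00316, limma). No exon of another gene overlaps TRIM21 in the annotation.

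TRIM69, which restricts vesicular stomatitis virus (chr15:44728988-44767829, plus strand), was the lowest of the 10 in shRNA-NC, with 1.46, 1.97 and 1.70 RPKM, and had 6.24, 9.22 and 5.03 RPKM in the knockdown samples. The log2 fold change of 1.90 (SE 0.21, 95% interval 1.42 to 2.39) had the smallest adjusted p of the 10, 0.000464 (limma). TRIM69 and TRIM22 were the 2 genes whose whole interval lay above 1. The lowest shRNA-UBC9 value of TRIM69 was 2.56 times its highest shRNA-NC value. Across the 6 samples the tested genes most like TRIM69 on the log2 scale included SP100, RNASEK, MAD2L1BP and PHF11, with Pearson's r from 0.9989 to 0.9994. Much of such a correlation comes from the difference between the groups, which these genes share.

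The other 5 genes act on the signaling that leads to interferon and inflammation. TRIM38, which restrains signaling from TNF, interleukin-1 and Toll-like receptors (chr6:25962802-25991231, plus strand), had 2.47, 2.89 and 2.88 RPKM in shRNA-NC and 5.80, 8.36 and 4.77 RPKM in shRNA-UBC9. TRIM38 rose by 1.14 on the log2 scale (SE 0.19, 95% interval 0.70 to 1.57, adjusted p = 0.00273, limma). It was the gene nearest to the fold threshold among the DEGs, and a pseudocount of 1 gave 0.94.

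TRIM14, an adaptor of MAVS without a RING domain (chr9:98069275-98119222, minus strand), had 12.4, 15.4 and 12.4 RPKM in shRNA-NC and 19.7, 30.9 and 24.2 RPKM in the knockdown samples. The log2 fold change of 0.87 (SE 0.17, 95% interval 0.49 to 1.26, adjusted p = 0.00489, limma) was below the fold threshold, which lay inside the interval. Without shRNA-UBC9 replicate 1 it was 1.03 and TRIM14 became a DEG. An exon of NANS on the opposite strand covers 7.7% of its exon bases.

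TRIM56, which promotes STING and TLR3 signaling (chr7:101085481-101097967, plus strand), had the closest replicates. It had 7.89, 7.94 and 7.93 RPKM in shRNA-NC and 11.5, 12.6 and 10.5 RPKM in the knockdown samples. This was a rise of 0.54 on the log2 scale (SE 0.09, 95% interval 0.32 to 0.75, adjusted p = 0.00323, limma). The groups did not overlap, and the whole interval lay between 0 and 1.

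TRIM26, which targets IRF3 for degradation (chr6:30184455-30213427, minus strand), had 10.3, 9.22 and 9.18 RPKM in shRNA-NC and 11.3, 17.4 and 14.4 RPKM in shRNA-UBC9. TRIM26 rose by 0.56 on the log2 scale (SE 0.15, 95% interval 0.22 to 0.90, adjusted p = 0.0204, limma). The lowest shRNA-UBC9 sample was 1.10 times the highest shRNA-NC sample.

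TRIM25, which acts in RIG-I signaling and is a cofactor of the zinc finger antiviral protein (chr17:56836387-56914080, minus strand), was the highest of the 10 in shRNA-NC, with 26.7, 27.3 and 24.4 RPKM. It had 29.6, 41.6 and 36.3 RPKM in shRNA-UBC9, and its lowest value there was 1.09 times the highest shRNA-NC value. The log2 fold change of 0.44 (SE 0.13, 95% interval 0.15 to 0.74, adjusted p = 0.027, limma) was the smallest of the 10. With shRNA-UBC9 replicate 2 left out, the adjusted p was 0.0872 for TRIM25 and 0.0566 for TRIM26, and with shRNA-NC replicate 3 left out it was 0.0972 and 0.0704. Other single samples also ended the call of one of them. For TRIM25 the adjusted p was 0.0636 without shRNA-NC replicate 1 and 0.0615 without shRNA-UBC9 replicate 3, and for TRIM26 it was 0.058 without shRNA-NC replicate 2. With no filter on low values beyond a value above 0 in 1 sample, more genes were tested and the adjusted p was 0.0578 for TRIM25 and 0.0502 for TRIM26.

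**Figure D3:**
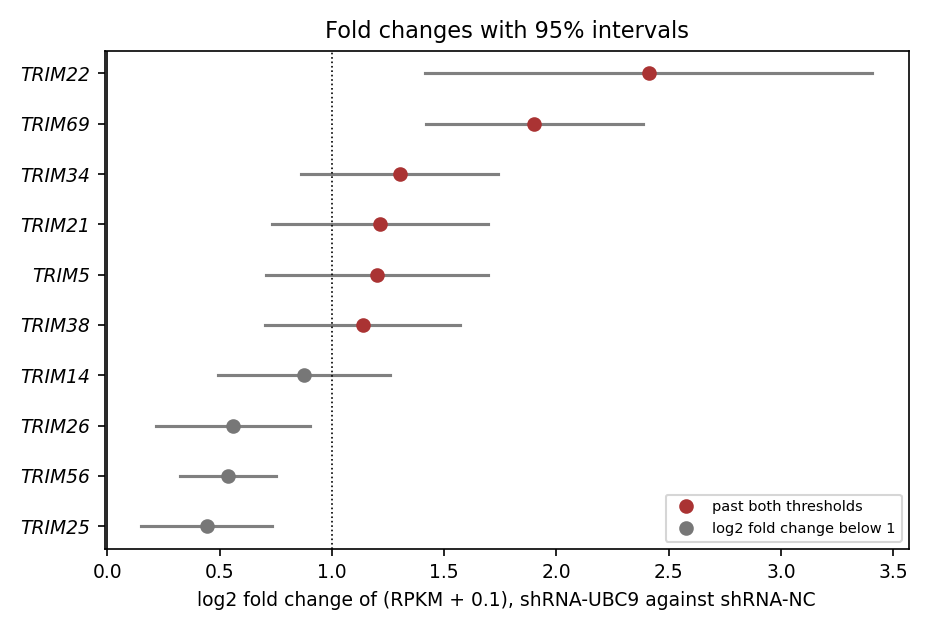
Log2 fold changes of (RPKM + 0.1), shRNA-UBC9 against shRNA-NC, of the 10 antiviral TRIM genes, as points with 95% intervals from limma. Red points passed the fold and adjusted p thresholds, grey points had a log2 fold change below 1, and the dotted line marks 1. Only the intervals of TRIM22 and TRIM69 lie wholly above the dotted line, and those of TRIM26, TRIM56 and TRIM25 lie wholly below it.

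The genes were not equally far apart in both groups. Their order within a group, and their shares of the sum, rest in part on the gene lengths used for RPKM. In shRNA-NC the order of mean RPKM was TRIM25 (26.1), TRIM21 (18.9), TRIM14 (13.4), TRIM5 (10.5), TRIM26 (9.57), TRIM56 (7.92), TRIM22 (5.53), TRIM34 (3.20), TRIM38 (2.74) and TRIM69 (1.71). Ranges overlapped between TRIM5 and TRIM26, between TRIM22 and TRIM34, and between TRIM34 and TRIM38, and the other neighbors were apart in all samples. In shRNA-UBC9 the order was TRIM21 (44.8), TRIM25 (35.8), TRIM22 (33.9), TRIM14 (24.9), TRIM5 (24.8), TRIM26 (14.4), TRIM56 (11.6), TRIM34 (8.08), TRIM69 (6.83) and TRIM38 (6.31). Here only TRIM5 and TRIM26, and TRIM56 and TRIM34, had ranges that were apart, and the other neighbors in this order overlapped. TRIM21 also lay above TRIM14 and TRIM5, which are not its neighbors, in all samples. The summed RPKM of the 10 genes was 91.7, 109.2 and 97.6 in the shRNA-NC samples and 170.2, 287.0 and 177.1 in the shRNA-UBC9 samples. TRIM22 held between 4.10% and 6.40% of this sum in shRNA-NC and between 10.6% and 21.7% in shRNA-UBC9. The share of TRIM25 was between 25.0% and 29.1% in shRNA-NC and between 14.5% and 20.5% in shRNA-UBC9.

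Replicate 2 was the highest sample of shRNA-UBC9 for all 10 genes and the highest of shRNA-NC for 9, TRIM26 being the exception. Over all tested genes, replicate 2 was the highest in 30.8% for shRNA-UBC9, in 41.2% for shRNA-NC and in 14.8% for both. In shRNA-UBC9 the ratio of replicate 2 to the mean of replicates 1 and 3 ranged from 1.15 for TRIM56 to 3.16 for TRIM22, and in shRNA-NC from 0.947 for TRIM26 to 1.46 for TRIM22. The coefficient of variation was larger in shRNA-UBC9 for every gene of the 10, from 9.34% for TRIM56 to 72.6% for TRIM22, against 0.319% to 29.7% in shRNA-NC for the same 2 genes. The same comparison was not made over all tested genes, so it is not known to be particular to these 10. The labels give no date or batch, and what sets replicate 2 apart was not tested. With replicate 2 of both groups left out, all 10 log2 fold changes stayed above 0, and 5 genes were DEGs, since TRIM38 had 0.95. The adjusted p was then 0.116 for TRIM25 and 0.121 for TRIM26 (limma).

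**Figure D4:**
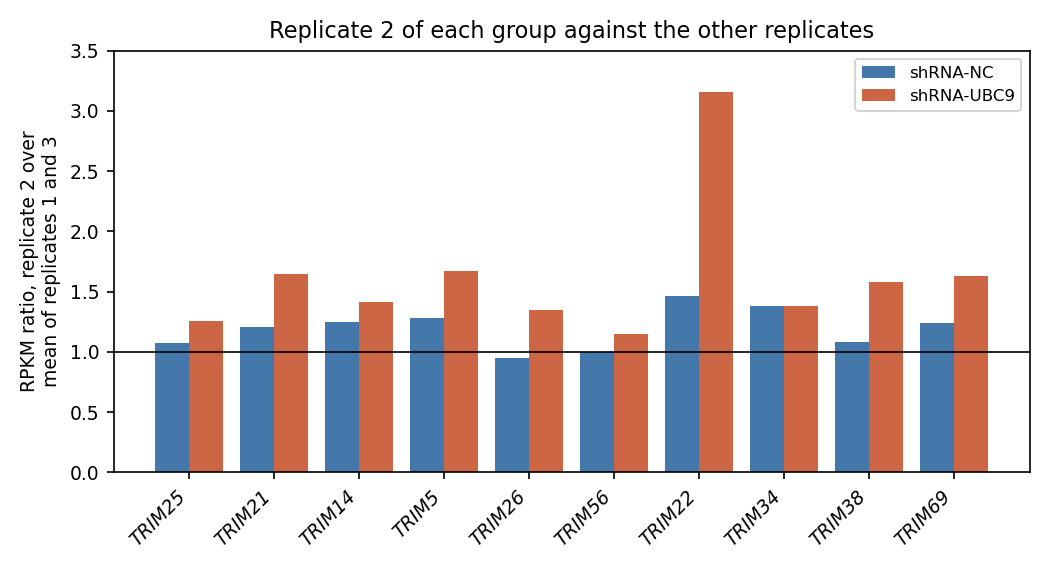
RPKM of replicate 2 divided by the mean of replicates 1 and 3 of the same group, for each antiviral TRIM gene, with shRNA-NC in blue and shRNA-UBC9 in orange. The horizontal line marks a ratio of 1. TRIM22 in shRNA-UBC9 stands highest, at 3.16, and TRIM26 in shRNA-NC is the only bar clearly below the line, at 0.947.

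The rest of the TRIM family was examined beside the 10. Of 68 other TRIM family genes in the files, PML, MID1, MID2 and MEFV included, 33 passed the filter on low values. Their median log2 fold change was 0.15, with 19 above 0. Of the 33, 4 were up-regulated DEGs (TRIM6, MID2, TRIM36 and TRIM8), against 5.2% of all tested genes. MID1 was a down-regulated DEG, and 335 of the 12428 tested genes were down-regulated DEGs. At an adjusted p below 0.05 with no fold minimum, 11 of the 33 were higher and 4 lower. The same held for 2339 and 2237 of the 12428 tested genes. MID2, a microtubule-bound TRIM protein, averaged 2.64 ± 0.17 RPKM in control cells and rose to 6.30 ± 1.08 (SD over 3 samples each), by 1.21 on the log2 scale (adjusted p = 0.000428, limma). MID1, its close relative, averaged 4.03 ± 0.47 RPKM and fell to 1.77 ± 0.06 (SD over 3 samples each), and the log2 fold change was -1.14 (adjusted p = 0.000292, limma). TRIM8, known as a positive regulator of TNF and interleukin-1 signaling, averaged 35.9 ± 4.1 RPKM in the control and 76.6 ± 3.5 in the knockdown cells, and TRIM36 averaged 1.13 ± 0.22 and 2.57 ± 0.51 RPKM (SD over 3 samples each). A pseudocount of 1 left 1 DEG in this family instead of 5.

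**Figure D5:**
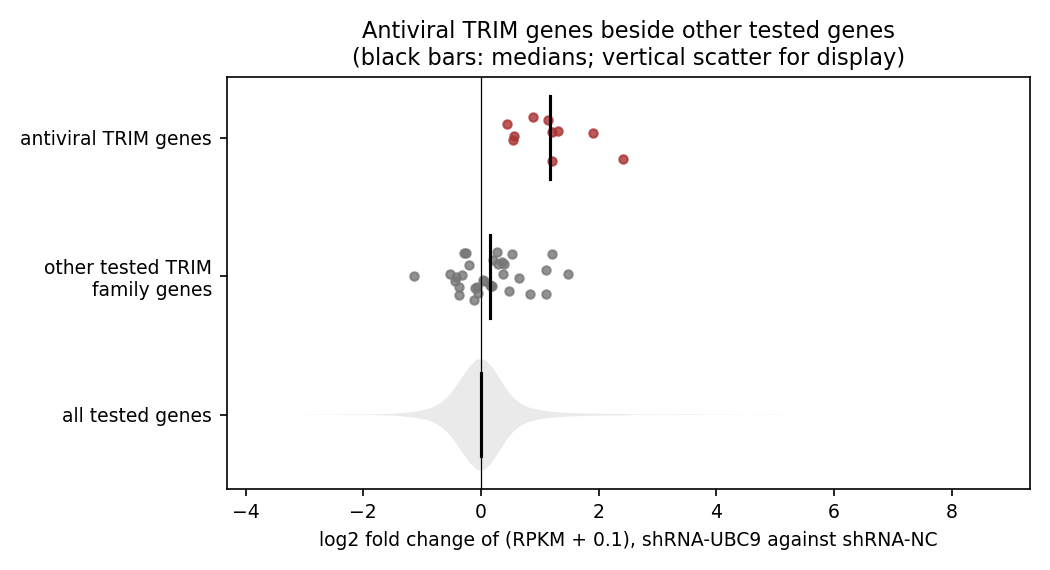
Log2 fold changes of (RPKM + 0.1), shRNA-UBC9 against shRNA-NC, of the 10 antiviral TRIM genes (red points), the 33 other tested TRIM family genes (grey points) and all 12428 tested genes (grey density). Black bars are medians, at 1.17, 0.15 and 0.005, and all red points lie to the right of 0.

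Among 25 genes of RNA and DNA sensing, the routes on which TRIM25, TRIM14, TRIM38, TRIM56 and TRIM26 act, 7 were up-regulated DEGs. The share over all tested genes was 5.2%. The median log2 fold change of the 25 was 0.52. DDX58, which encodes RIG-I, averaged 11.6 ± 1.6 RPKM in control cells and 45.7 ± 17.6 in knockdown cells (SD over 3 samples each). Its log2 fold change was 1.91 (adjusted p = 0.000718, limma). The sensor IFIH1 (MDA5) had a log2 fold change of 2.39, the RIG-I-like receptor DHX58 of 2.22, the transcription factor IRF7 of 2.52, the kinase IKBKE of 1.37 and the ubiquitin ligase RNF125 of 1.20. The largest adjusted p among these 6 was 0.0136 (limma), for RNF125, which passed the filter only through the shRNA-UBC9 samples.

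The E2 enzymes, deubiquitinases and ISG15 conjugation genes that surround TRIM ligases held 22 tested genes with a median log2 fold change of 0.34. Of these, 4 were up-regulated DEGs, against 5.2% of all tested genes. USP18, ISG15 and UBA7 had log2 fold changes of 2.67, 2.34 and 1.20, and UBE2L6 averaged 23.4 ± 2.5 RPKM in control and 69.1 ± 27.1 RPKM in knockdown cells (SD over 3 samples each). The largest adjusted p of the 4 was 0.00425 (limma). All 4 belong to the ISG15 system, in which ISG15 is the modifier, UBA7 its E1, UBE2L6 its E2 and USP18 its remover. HERC5, the main E3 ligase for ISG15, averaged 11.5 ± 1.9 RPKM in control and 16.5 ± 6.3 RPKM in knockdown cells (SD over 3 samples each), with overlapping groups and an adjusted p of 0.166 (limma).

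Of 17 tested genes of interferon signaling, 5 were up-regulated DEGs, against 5.2% of all tested genes. The median log2 fold change over the 17 was 0.60. IRF9, an IRF family protein that binds the ISRE, averaged 6.96 ± 0.82 RPKM in the control and 20.1 ± 2.4 in the knockdown cells (SD over 3 samples each). The interferon gene IFNL1 averaged 0.0585 RPKM in shRNA-NC and 1.23 RPKM in shRNA-UBC9, and passed the filter only through the latter. IFNL1 rested on few reads, with 1, 2 and 2 in the shRNA-NC samples and 21, 72 and 15 in the shRNA-UBC9 samples. The receptor subunit IFNLR1 had a log2 fold change of 1.17, and the feedback inhibitor SOCS3 averaged 8.42 ± 0.90 and 17.7 ± 5.0 RPKM. With a pseudocount of 1 the list held 2 DEGs. IFNB1 did not reach the filter and was listed at 0 in all 3 shRNA-NC samples and at 0.484, 0.793 and 0.206 RPKM in the shRNA-UBC9 samples.

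The median log2 fold change of 17 other factors that restrict or assist retroviruses was 0.20. Among the 17, 5 were up-regulated DEGs, against 5.2% of all tested genes. They were the membrane factors IFITM1 (3.77), IFITM3 (1.60) and BST2 (1.81), the capsid-binding MX2 (3.43) and the dNTP hydrolase SAMHD1 (1.60), each with its log2 fold change in parentheses, and the largest adjusted p of the 5 was 0.00112 (limma). At an adjusted p below 0.05 with no fold minimum, 8 of the 17 were higher and 3 lower. Over the 12428 tested genes these counts were 2339 and 2237. The lower ones were PSIP1 (-0.69), CPSF6 (-0.39) and PPIA (-0.35), none of them a DEG.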

How the data were processed

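RNA-seq was performed on T24 cells carrying the UBC9 shRNA (shRNA-UBC9, n = 3) or the scrambled control (shRNA-NC, n = 3), and groups were taken from the sample titles. The authors trimmed adaptors, mapped reads to GRCh38 (hg38 in the submitters' processing notes) in CLC Biomedical Genomics Workbench 4, and the RPKM values they deposited cover 58174 genes. The annotation release, the use of strand and the treatment of reads with several matches are not given in the sources used here.

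RPKM was taken to log2(RPKM + 0.1). The 12428 genes that reached 0.5 RPKM in 3 or more samples entered limma 3.58.1 in R 4.3.3 (lmFit, eBayes with an intensity trend), with Benjamini-Hochberg adjustment over all of them. A DEG had a |log2 fold change| above 1 and an adjusted p below 0.05. Mapped totals were worked out from RPKM steps of single-exon genes of GENCODE release 44, and gene lengths were then solved so that every sample gave whole reads. All 12428 tested genes did so (100.0%, tolerance 0.02 reads). Reads served only for depth and for a limma voom alternative, since the files hold RPKM.

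The text names the 10 members, DEGs of the other TRIM genes and of 4 lists (at most 6 each), and, from the 5 genes most like the member with the smallest adjusted p, 4. The level of the targeted gene, the remaining gene of the 5 and 1 DEG of the interferon signaling list are not reported here. Members and lists were chosen with earlier results of these data known. Promoter windows came from RefSeq (GRCh38.p14). A planned protein comparison was not run. Alternatives were 2 other pseudocounts, other filters, quantile and median scaling, no trend, a replicate block, left-out samples, other thresholds and voom. The fit was tested on simulated data. Python 3.11.15, numpy 2.4.6, pandas 2.3.3 and matplotlib 3.10.9 were used otherwise.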

Additional observations from a re-analysis of the deposited data

How the results depend on the processing

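Across 17 other settings, all 170 refitted log2 fold changes of the 10 TRIM genes stayed above 0, and 164 stayed on the same side of the DEG cutoff. Among the 6 that crossed it, 5 fell below a log2 fold change of 1 (TRIM38 in 3 settings, TRIM5 and TRIM21 in 1 each) and TRIM14 rose above it. The TRIM genes that were DEGs numbered from 3 to 7 of 10 with a sample left out, and 10 with no fold minimum. The overall count of 981 DEGs was 552 with a pseudocount of 1, 4576 with no fold minimum, and 799 to 964 with a sample left out. A pseudocount of 0.5 left 3 DEGs among the interferon signaling genes and 3 among the other TRIM family genes, and a pseudocount of 1 left 2 and 1, since a pseudocount shrinks the change of low genes. Leaving out replicate 2 of both groups and limma voom were chosen after seeing the data, and voom on the worked-out reads gave 6 TRIM DEGs. The replicate numbers share no stated batch. Deviations of same-numbered samples correlated at -0.367, 0.0728 and -0.171, and with the number as a replicate block 6 TRIM genes and 974 genes overall were DEGs. Counts of reads limit TRIM34 most, with 224 reads in its lowest sample.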
